A study of Homo sapiens with 4 samples.

Results

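Genes of the extracellular matrix were described in the human cell line BLaER1 before and after it was turned into macrophage-like cells. The genes are SPP1, FN1, TGFBI, SPARC, THBS1, VCAN and CD44, and they are 7 of the 58302 gene rows in the deposited table, each found by its symbol. They were chosen by name with the TPM values of this comparison already known, so those values are given as a description, without a test. RNA sequencing of total RNA gave 4 libraries, 2 of undifferentiated and 2 of differentiated cells. All 4 come from the same line, a B cell leukaemia line carrying the transcription factor C/EBPα fused to the part of the oestrogen receptor that binds hormone. Cells of the differentiated stage were kept for 5 to 6 days in 100 nM oestradiol together with M-CSF and IL-3, per the labels' protocols. A concentration of 10 ng/ml is written before IL-3, and the text leaves unclear if M-CSF had the same. The hormone, the cytokines and the days of treatment differ together between the stages, and their parts cannot be told apart. The labels do not state that replicate libraries were made from separate cultures, so p-values measure the spread between these 4 libraries alone, and that spread may be technical.

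Osteopontin (SPP1) is a secreted phosphoprotein of bone and of activated macrophages that binds integrins and CD44. Fibronectin (FN1) is a secreted glycoprotein that cells assemble into fibrils through integrins, and macrophages are among its known sources. SPARC and thrombospondin 1 (THBS1) are matricellular proteins, which are secreted into the matrix and act on cells there more than they build its scaffold. TGFBI is a secreted protein named for its induction by TGF-beta, and VCAN encodes versican, a large chondroitin sulphate proteoglycan that binds hyaluronan. CD44 is no matrix protein itself but the main cell surface receptor for hyaluronan, and it also binds osteopontin.

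The stretches before the transcription starts of SPP1, FN1 and CD44 are shown because these 3 genes carried nearly all of the summed level of the 7. All 7 genes had an entry among the 35116 promoters of the RefSeq table (build GRCh38.p14), and the 250 bases before the start of each of the 3 are printed 5′ to 3′ on the gene's strand. Capitals mark a match to 1 of 6 motifs searched on both strands. SPP1 lies on the plus strand at chr4:87975464-87975713, FN1 on the minus strand at chr2:215436069-215436318 and CD44 on the plus strand at chr11:35138921-35139170.
SPP1: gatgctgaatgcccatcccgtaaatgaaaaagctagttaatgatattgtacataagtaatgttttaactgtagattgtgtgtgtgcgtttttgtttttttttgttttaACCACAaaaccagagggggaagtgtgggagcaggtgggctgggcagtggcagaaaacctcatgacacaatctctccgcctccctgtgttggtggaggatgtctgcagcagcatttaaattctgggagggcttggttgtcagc
FN1: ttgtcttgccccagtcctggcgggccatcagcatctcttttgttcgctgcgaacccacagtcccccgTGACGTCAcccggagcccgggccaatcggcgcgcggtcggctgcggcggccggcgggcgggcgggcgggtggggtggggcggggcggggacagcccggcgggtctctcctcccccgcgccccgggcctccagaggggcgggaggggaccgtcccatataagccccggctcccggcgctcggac
CD44: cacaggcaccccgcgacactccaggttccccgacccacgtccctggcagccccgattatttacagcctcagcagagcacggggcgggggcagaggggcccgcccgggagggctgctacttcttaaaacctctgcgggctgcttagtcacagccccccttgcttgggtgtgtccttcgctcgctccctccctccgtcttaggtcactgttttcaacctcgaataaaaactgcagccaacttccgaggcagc
The SPP1 stretch held the RUNX motif TGTGGT, read as ACCACA on the printed strand with its first base 142 bases before the start. This motif was present in 11.0% of all promoters. The FN1 stretch held the palindromic cyclic AMP response element TGACGTCA 183 bases before the start, which 1.65% of all promoters held. The CD44 stretch held none of the 6. The PU.1 core GAGGAA was found in the stretches of TGFBI, SPARC and THBS1 and in 23.6% of all promoters. The C/EBP motif TTGCNNAA (9.05% of all promoters), the AP-1 motif TGANTCA (6.57%) and the TATA motif TATAAA (10.7%) were found in none of the 7. No match overlapped a match of another motif. The G and C content was 44.8% for SPP1, 76.4% for FN1 and 62.4% for CD44, against a median of 58.0% over all promoters, and the 3 stretches held 3, 32 and 15 CpG dinucleotides. A match or its absence describes the letters of this window alone.

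SPP1 and FN1 were among the most abundant protein-coding transcripts of differentiated cells and were at or near 0 before differentiation. Levels are in TPM, a share of all transcripts after division by gene length, so that genes can be compared with each other within a library. In the differentiated libraries SPP1 was at 2563 and 2504 TPM, and both undifferentiated libraries list it at 0. The differentiated mean was 2534 ± 41.4 TPM (SD, n = 2), and the values before and after did not overlap. No fold is given against a stage listed at 0. In these bulk libraries, fewer cells of a type and less RNA per cell cannot be told apart.

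Among protein-coding genes, SPP1 ranked number 5 in differentiated replicate 1 and number 6 in replicate 2. The genes above it were the mitochondrial MT-ATP8 and MT-ATP6 and the ferritin subunits FTL and FTH1 in both libraries, and MT-CO2 in replicate 2. SPP1 alone made up 2.10% and 1.86% of the summed protein-coding TPM of the differentiated libraries.

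FN1 was at 460 and 504 TPM in differentiated and at 0.83 and 0.14 TPM in undifferentiated libraries. Both differentiated libraries lay far above both undifferentiated ones, which themselves differed 5.93-fold at a level below 1 TPM. The means were 482 ± 30.6 and 0.485 ± 0.488 TPM (SD, n = 2), a ratio of 994. Between single libraries the ratio ran from 555 to 3597, so its size is set largely by how the low undifferentiated values are read. Measured as log2(TPM + 1), a scale on which changes of low genes look smaller than they are, the difference was 8.38. FN1 ranked 26 and 27 among protein-coding genes after differentiation and 9107 and 10817 before it.

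CD44, the receptor of the group, was the only one of the 7 above 1 TPM before differentiation. Its level was 124 and 146 TPM in differentiated and 36.4 and 28.9 TPM in undifferentiated libraries. The stages did not overlap, and each was tight, with means of 135 ± 14.9 and 32.7 ± 5.28 TPM (SD, n = 2). The mean was 4.13-fold higher after differentiation, with ratios of 3.42 to 5.03 between single libraries and a log2 difference of 2.02. Its rank among protein-coding genes was 103 in both differentiated libraries and 661 and 558 in the undifferentiated ones. An antisense gene listed at the locus, CD44-AS1, was at 0 in all 4 libraries.

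SPARC, a collagen-binding protein, stayed at a low level in all 4 libraries. Its values were 2.76 and 2.69 TPM after differentiation and 0.78 and 0.29 TPM before it. All differentiated values were higher, and the undifferentiated pair was spread 2.69-fold. The means were 2.73 ± 0.0495 and 0.535 ± 0.346 TPM (SD, n = 2), a ratio of 5.09 and a log2 difference of 1.30. SPARC ranked 5097 and 5407 among protein-coding genes after differentiation, far below SPP1 and FN1.

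THBS1, which binds the receptors CD36 and CD47 and can activate latent TGF-beta, was listed at 1.47 and 0.65 TPM after differentiation and at 0.04 TPM in both libraries before it. The stages did not overlap, but the differentiated replicates differed 2.26-fold. The log2 difference of the means was 0.96, and it was 0.67 without differentiated replicate 1 and 1.25 without differentiated replicate 2. TGFBI was at 0.59 and 1.03 TPM in differentiated cells and at 0.18 and 0 TPM in undifferentiated cells. Again the differentiated values were the higher ones, with means of 0.81 ± 0.311 and 0.09 ± 0.127 TPM (SD, n = 2) and a log2 difference of 0.73. Levels this close to 0 carry an unknown counting error, because TPM keeps no sequencing depth.

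VCAN was the exception to the direction of the other 6. Its level was 0.04 and 0.17 TPM after differentiation and 0.46 and 0.10 TPM before it. The stages overlapped, and the log2 difference of -0.20 came from undifferentiated replicate 1 (0.0040 without it, -0.40 without undifferentiated replicate 2). VCAN-AS1, the antisense gene listed beside it, was at 0 in all 4 libraries. Per the labels' protocols the libraries are stranded, but whether strand was used in counting is not given in the sources used here.

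**Figure D1:**
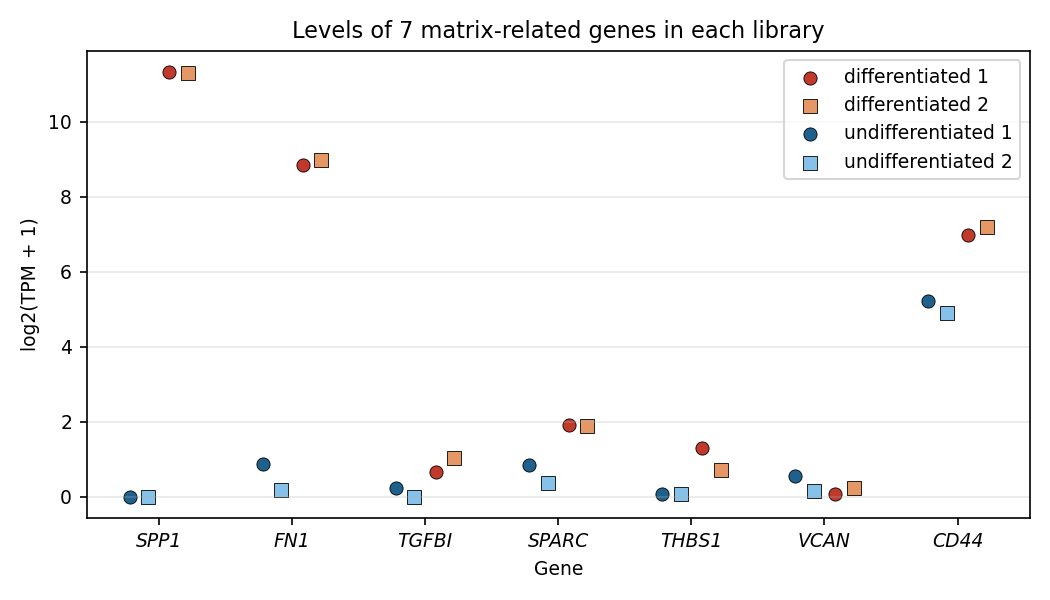
Level of each of the 7 genes as log2(TPM + 1) on the vertical axis, 1 point per library, with undifferentiated libraries in blue and differentiated libraries in red and orange. SPP1 at 2563 and 2504 TPM and FN1 at 460 and 504 TPM stand at the top after differentiation and at the bottom before it, whereas SPARC, THBS1, TGFBI and VCAN lie under 3 TPM in all 4 libraries.

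The 7 genes comprised 3 above 100 TPM in both differentiated libraries (SPP1, FN1 and CD44) and 4 under 3 TPM in all libraries. In differentiated cells SPP1 stood 5.57-fold and 4.97-fold above FN1 in replicates 1 and 2, and FN1 stood 3.70-fold and 3.46-fold above CD44. CD44 in turn was 45.1-fold and 54.1-fold above SPARC. These steps were larger than the spread of each gene over the libraries, and SPARC also lay above THBS1 and TGFBI in both. THBS1 and TGFBI changed places between the replicates, and VCAN came last in both. Before differentiation CD44 was the highest in both libraries, 46.7-fold and 99.7-fold above SPARC. There FN1 (0.83 and 0.14 TPM) and SPARC (0.78 and 0.29 TPM) changed places between the libraries. Each lay above VCAN (0.46 and 0.10 TPM) in both libraries, but their ranges overlapped at levels with an unknown counting error. SPARC lay above TGFBI in both libraries without overlap. FN1 and VCAN also lay above TGFBI in both libraries, but with overlapping ranges. SPP1 was at 0 in both, as TGFBI was in replicate 2.

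The balance between fibronectin and its neighbour in level, the receptor CD44, was inverted between the stages. The ratio of FN1 to CD44 was 3.70 and 3.46 in differentiated libraries and 0.0228 and 0.00484 in undifferentiated ones. Summed over the 7 genes, the level was 3153 and 3158 TPM after differentiation and 38.7 and 29.5 TPM before it, of which CD44 was 36.4 and 28.9 TPM. The 7 genes made up 2.59% and 2.34% of the summed protein-coding TPM after differentiation and 0.0168% and 0.0189% before it. Without SPP1 the differentiated sums were 590 and 654 TPM.

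**Figure D2:**
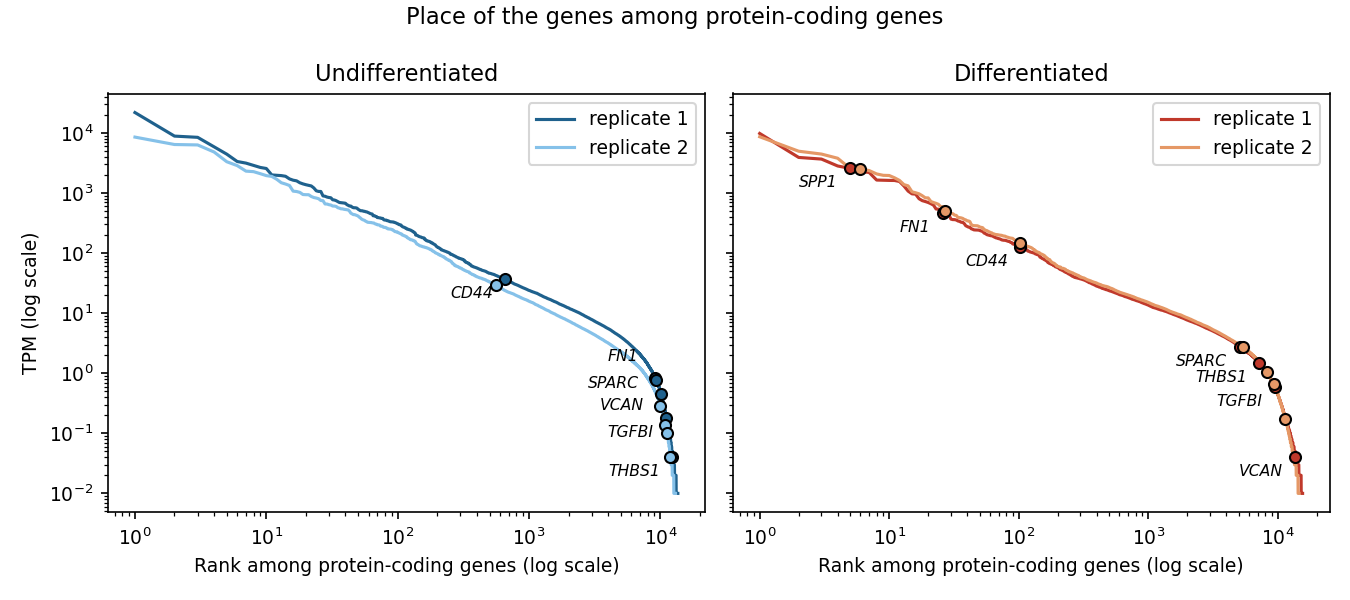
TPM of every protein-coding gene above 0 (log axis) against its rank in the library (log axis), 1 line per library, undifferentiated on the left and differentiated on the right, with the matrix genes as dots. SPP1 sits at ranks 5 and 6 and FN1 at 26 and 27 after differentiation, while before it FN1 lies at ranks 9107 and 10817 and SPP1, listed at 0, is not drawn.

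The libraries differed in ways that touch these values. The protein-coding share of the summed TPM was 12.2% and 13.5% after differentiation and 23.0% and 15.6% before it. Genes were higher in undifferentiated replicate 1 than in replicate 2 by a median of 0.505 on the log2 scale. Rescaled to the same sum over protein-coding genes alone, CD44 was at 1021 and 1080 in the differentiated and at 158 and 185 in the undifferentiated libraries, so its ratio was 6.12 instead of 4.13. FN1 was at 3776 and 3735 against 3.61 and 0.897 on that scale, and SPARC was 8.11-fold higher. The plot of differences under other settings shows that the 5 genes other than SPP1 and VCAN were higher in differentiated cells under each setting. Genes with undifferentiated values near 0, FN1 among them, depended on the pseudocount more than CD44 did. With a pseudocount of 0.1 in place of 1, the difference was 2.95 for THBS1, 2.40 for TGFBI and 2.27 for SPARC, and 2.05 for CD44.

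**Figure D3:**
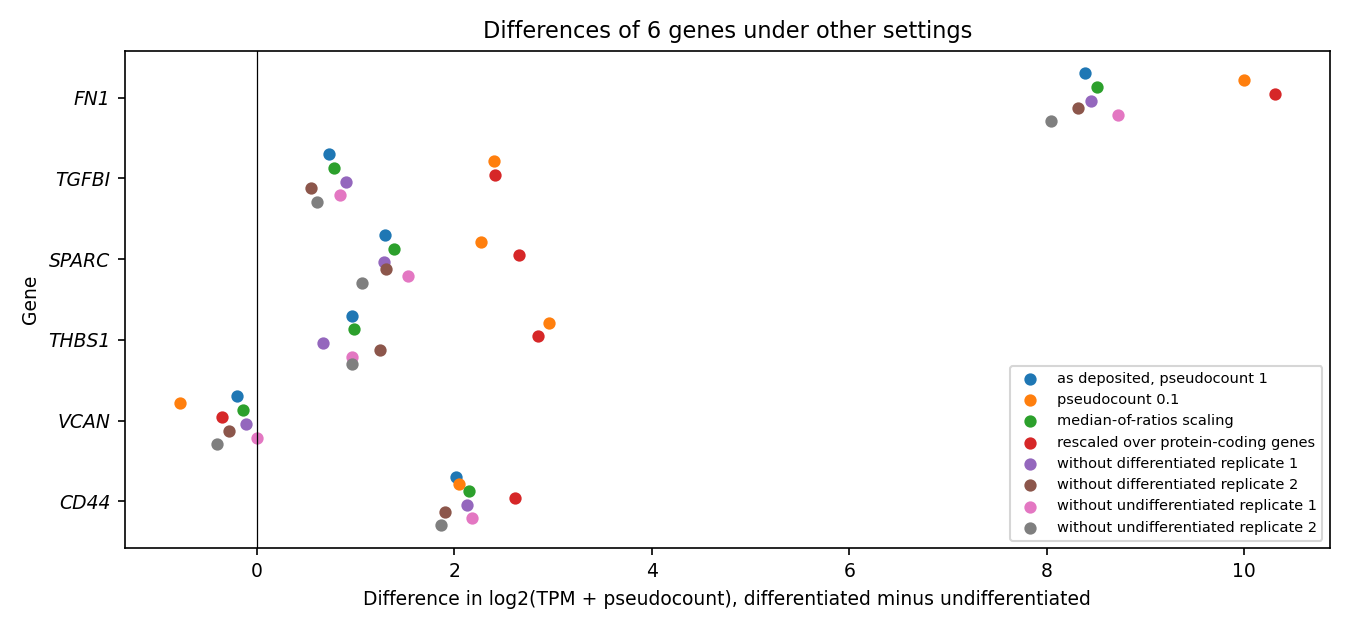
Difference between stages in log2(TPM + pseudocount) on the horizontal axis for the 6 genes with a value above 0 before differentiation, 1 point per setting. CD44 stays between 1.86 and 2.61 and FN1 between 8.04 and 10.31. VCAN lies at -0.20 as deposited with pseudocount 1, at 0.0040 without undifferentiated replicate 1 and at -0.40 without undifferentiated replicate 2.

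For comparison across genes, stages were tested with limma on log2(TPM + 1) for the 10180 genes that reached 1 TPM in 2 libraries or more. Genes whose adjusted p (Benjamini-Hochberg) was below 0.05 are referred to as called. Of these genes 41.4% were called, 18.6% higher (1890) and 22.8% lower (2326) in differentiated cells, with a median log2 difference of -0.14. Without differentiated replicate 1 the counts were 949 higher and 344 lower, without differentiated replicate 2 they were 934 and 337, and without undifferentiated replicate 2 3818 were lower. Of the calls, 44.8% were higher. Values rescaled over protein-coding genes, a step that also let 11945 genes pass the filter and made the pseudocount weigh less, had a median of 0.37 and 65.6% of calls higher (4102 higher, 2153 lower). Median-of-ratios scaling of the same 10180 genes gave a median of -0.03 and 49.1%. Among the matrix genes described above, SPP1, FN1, SPARC and CD44 passed the filter, and TGFBI, THBS1 and VCAN did not. Of the 7, 6 were higher without overlap between stages, 0 were lower without overlap and 1, VCAN, overlapped. Over the 29186 genes above 0 TPM in at least 1 library, 44.9% did not overlap, 24.9% being higher and 20.0% lower. Since the 7 were chosen with this contrast known, nothing is read from these counts.

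Around the 7, 6 lists of genes were then counted in the same fit. They name receptors, related glycoproteins, collagens and laminins, hyaluronan and chondroitin sulphate genes, folding and cross-linking enzymes, and TGF-beta genes. A gene expressed at a single stage passes the filter through that stage's libraries, so counts over tested genes lean towards called ones, and all members below the filter are counted apart.

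Of the receptors for these matrix proteins that passed the filter, most were higher in differentiated cells. Of 23 listed, 13 were tested, of which 9 were higher, 2 lower and 2 not called, and 10 were below the filter. Over all tested genes, 18.6% were higher and 22.8% lower. The median log2 difference of the tested receptors was 2.07 against -0.14 over all tested genes. Without the 4 receptors listed at 0 in a stage, the median was 1.40. Before differentiation, 7 of the 9 called higher averaged under 1 TPM. Stabilin 1 (STAB1), a scavenger receptor known to take up SPARC, was listed at 134 and 141 TPM after differentiation and at 0 in both libraries before it. The syndecans SDC2 (10.7 and 14.8 TPM) and SDC3 (11.6 and 13.6 TPM), heparan sulphate proteoglycans that bind fibronectin, were likewise listed at 0 in both undifferentiated libraries. When a differentiated library is left out, the spread comes from the undifferentiated pair alone. That pair is listed at 0 and 0 for STAB1, SDC2 and SDC3, so leaving out a differentiated library does not test these 3.

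Integrin chains that bind osteopontin and fibronectin moved in both directions. The β5 chain ITGB5, a partner of αv, was listed at 7.93 and 11.0 TPM after differentiation and at 0 in both libraries before it. The αv chain ITGAV was at 6.42 and 6.85 against 1.09 and 0.58 TPM, and its log2 values differed by 2.07 ± 0.37 (SE, adjusted p = 0.000627, limma). The classical fibronectin receptor pair, ITGA5 (13.3 and 12.6 against 4.50 and 2.26 TPM, log2 difference 1.72) and ITGB1 (40.5 and 37.3 against 18.6 and 10.7 TPM, log2 difference 1.40), was also called higher (adjusted p = 0.00400 and 0.0113, limma). In the other direction, ITGA4, whose α4β1 integrin binds both fibronectin and osteopontin, was at 4.18 and 3.24 against 47.4 and 19.8 TPM. ITGA4 differed by -2.76 ± 0.44 (SE, adjusted p = 0.000275, limma), and ITGA8 was lower as well, at 0.04 and 0 against 4.13 and 2.02 TPM. ITGB3, the other well-known partner of αv for osteopontin, was at 0.10 TPM or less in all 4 libraries, and ITGA9 at 0.78 and 0.84 against 0.15 and 0.02 TPM. ITGB5, ITGAV, ITGA5, ITGB1, ITGB3 and ITGA9 were chosen after their values were seen, as partners named for their role.

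Without differentiated replicate 1 or 2, several of these calls did not hold in limma. The adjusted p was 0.0704 and 0.0859 for ITGA4, 0.0553 and 0.0617 for ITGA8, 0.0616 and 0.0651 for ITGAV, 0.212 and 0.201 for ITGA5 and 0.257 and 0.222 for ITGB1. The receptors called higher numbered 6 in each case and those called lower 0, with 2 lower at an unadjusted p below 0.05. Among receptors for thrombospondin 1, the scavenger receptor CD36 was at 11.5 and 12.5 TPM in differentiated and at 0.16 and 0 TPM in undifferentiated libraries, and LRP1, an endocytic receptor, at 9.38 and 10.0 against 0.37 and 0.17 TPM. Both were called higher and were also chosen after their values were seen. CD47, the thrombospondin receptor that signals to phagocytes, was at 4.03 and 2.80 against 8.91 and 2.81 TPM and was not called (adjusted p = 0.436, limma). Without undifferentiated replicate 2, CD47 was called lower (log2 difference -1.18, adjusted p = 0.0214).

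Most other matricellular and matrix glycoproteins were scarcely detected. Of 47 listed, 36 were below the filter and 9 of them at 0 in all libraries. Of the 11 tested, 3 were higher, 4 lower and 4 not called, beside 18.6% higher and 22.8% lower over all tested genes. The median log2 difference of the 11 was -0.33, and -0.10 without the 1 listed at 0 in a stage. After rescaling over protein-coding genes, 17 passed the filter, 9 were higher and the median was 1.61. Over all genes so rescaled, 4102 of 11945 were higher, with a median of 0.37. Median-of-ratios scaling of the same 11 genes gave a median of -0.24. The sign of the list's median therefore differed between the settings, of which the first also changed the genes tested and the weight of the pseudocount. Relatives of SPP1, TGFBI, SPARC and THBS1 were low in all libraries. Of the SPP1 family, IBSP was at 0.25 and 0.35 against 0 and 0 TPM, MEPE and DMP1 were at 0 in all libraries, and DSPP reached 0.03 TPM at most. POSTN, the paralogue of TGFBI, reached 0.09 TPM and SPARCL1 was at 0 throughout. THBS3 was at 1.02 and 1.12 against 1.14 and 0.66 TPM and was not called (adjusted p = 0.696, limma). These relatives were picked after their values were seen.

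Among the called glycoproteins, galectin 3 (LGALS3), a β-galactoside-binding lectin of macrophages, was at 9.27 and 15.6 TPM in differentiated and 0.14 and 0 TPM in undifferentiated libraries. Its log2 difference was 3.61 ± 0.39 (SE, adjusted p = 1.52e-05, limma). ECM1, a secreted matrix glycoprotein, was at 7.91 and 9.60 against 1.34 and 0.84 TPM. The lower genes included nidogen 2 (NID2), a basement membrane linker, at 0.11 and 0.10 against 7.52 and 4.66 TPM, and fibulin 1 (FBLN1), which binds fibronectin, at 0.08 and 0.31 against 6.55 and 2.87 TPM. Peroxidasin (PXDN), which cross-links collagen IV, was at 2.19 and 6.51 against 19.9 and 8.50 TPM (adjusted p = 0.0261, limma). MFGE8, the integrin-binding bridge for apoptotic cells, was the most abundant one not called, at 6.52 and 6.19 against 3.08 and 2.80 TPM (adjusted p = 0.0738). Median-of-ratios scaling (adjusted p = 0.0107, limma) and rescaling over protein-coding genes (adjusted p = 0.00273) both gave MFGE8 a call as higher, as did leaving out undifferentiated replicate 1 (adjusted p = 0.0267) or 2 (0.0321).

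Calls of NID2 (adjusted p = 0.0650 and 0.0668), FBLN1 (0.128 and 0.0849), ECM1 (0.0740 and 0.0883) and PXDN (0.507 and 0.146) were lost in limma without differentiated replicate 1 and 2. PXDN also lost its call without undifferentiated replicate 1 (adjusted p = 0.203, limma) and after rescaling over protein-coding genes (0.0668). Without differentiated replicate 1 or 2 only 1 glycoprotein was called lower. The log2 difference of LGALS3 was 3.27 to 3.96 with single libraries left out. Its undifferentiated pair lies near 0, so fits without a differentiated library hardly test it.

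Collagens and laminins were nearly absent at both stages. Of 58 listed, 54 were below the filter, 7 of them at 0 in all libraries. Of the 4 tested, 2 were higher, 1 was lower and 1 was not called, with a median of 0.08. The shares over all tested genes were 18.6% higher and 22.8% lower. After rescaling over protein-coding genes, 6 of 13 tested were higher, against 4102 of 11945 over all tested genes. COL5A1, a fibrillar collagen chain, was at 2.98 and 2.39 against 0.34 and 0.10 TPM (log2 difference 1.60 ± 0.26, adjusted p = 0.000300, limma). HSPG2, which encodes perlecan, was at 3.12 and 2.07 against 0.98 and 0.33 TPM, and COL27A1, another fibrillar chain, was lower, at 1.11 and 0.86 against 4.76 and 3.60 TPM. The laminin chain LAMC1 was not called, at 5.34 and 5.06 against 12.4 and 10.0 TPM (adjusted p = 0.0557). The main fibrillar chains of connective tissue, COL1A1, COL1A2 and COL3A1, reached 0.28 TPM at most. The log2 difference of COL5A1 was 1.45 to 1.74 with single libraries left out, but its undifferentiated pair lies near 0. HSPG2 (adjusted p = 0.128 and 0.0719) and COL27A1 (0.211 and 0.287) lost their call in limma without differentiated replicates 1 and 2, HSPG2 also without undifferentiated replicate 2 (0.0504), and LAMC1 was called lower without undifferentiated replicate 1 (0.0379) or 2 (0.0138). After median-of-ratios scaling LAMC1 was called lower too (adjusted p = 0.0198, limma).

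**Figure D4:**
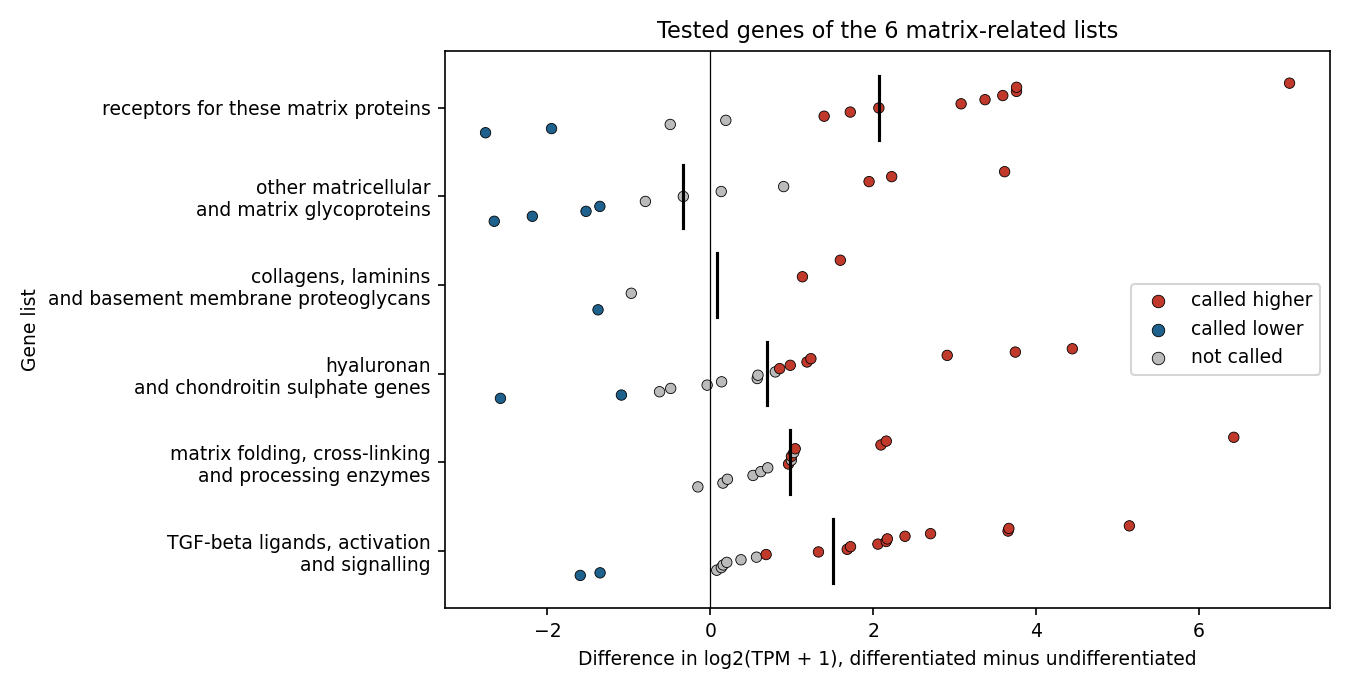
Difference between stages in log2(TPM + 1) for each tested gene of the 6 lists, in red where called higher, blue where called lower and grey where not called, with a bar at each list's median. Receptors (median 2.07) and TGF-beta genes (1.51) lie mostly to the right, glycoproteins (-0.33) on both sides, and values of genes listed at 0 in a stage, such as STAB1, depend on the pseudocount.

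Hyaluronan is the ligand of CD44 and versican. Its synthases HAS1, HAS2 and HAS3 were at 0.06 TPM or less in all libraries and the link protein HAPLN1 at 0. Of 44 listed hyaluronan and chondroitin sulphate genes 16 were tested, of which 7 were higher, 2 lower and 7 not called. The shares over all tested genes were 18.6% higher and 22.8% lower. The median of the 16 was 0.69, and 0.59 without the 1 listed at 0 in a stage. After rescaling over protein-coding genes, 13 of 26 tested were higher, against 4102 of 11945 over all tested genes. LYVE1, a hyaluronan receptor of lymphatic vessels and tissue macrophages, was listed at 21.9 and 19.7 TPM after differentiation and at 0 in both libraries before it. Serglycin (SRGN), an intracellular chondroitin sulphate proteoglycan that can bind CD44, was at 68.4 and 74.8 against 5.24 and 3.69 TPM (log2 difference 3.75 ± 0.37, adjusted p = 8.66e-06, limma). DSE, which turns chondroitin into dermatan sulphate, was at 11.2 and 11.5 against 1.01 and 0.34 TPM.

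The hyaluronan-binding motility receptor HMMR, which also has a known role at the mitotic spindle, was lower, at 0.23 and 0.16 against 9.90 and 3.65 TPM. CHSY1, a chondroitin sulphate synthase, was lower too, at 0.76 and 0.95 against 4.24 and 1.97 TPM. CHST15, a chondroitin sulphotransferase, was at 16.6 and 16.3 against 9.97 and 8.14 TPM and was not called (adjusted p = 0.104, limma). SRGN and DSE kept their call with any single library left out, whereas HMMR (adjusted p = 0.102 and 0.110) and CHSY1 (0.364 and 0.290) lost theirs in limma without differentiated replicates 1 and 2. Of the list, 4 were then called higher without replicate 1, and 0 were called lower without either, with 1 lower at an unadjusted p below 0.05.

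Enzymes that fold, cross-link and process matrix proteins were higher or not called. Of 28 listed, 14 were tested, of which 6 were higher and 8 not called, with a median of 0.98. The shares over all tested genes were 18.6% higher and 22.8% lower. After rescaling over protein-coding genes, 15 of 19 tested were higher, against 4102 of 11945 over all tested genes. In limma 0 of the 14 were called lower, and 0 were lower at an unadjusted p below 0.05. Coagulation factor XIII A (F13A1), a transglutaminase that cross-links fibrin and fibronectin, was at 94.9 and 95.8 TPM in differentiated and 0.24 and 0.01 TPM in undifferentiated libraries. Its log2 difference was 6.43 ± 0.38 (SE, adjusted p = 9.66e-08, limma), with no overlap between the stages. FAM20C, the secretory pathway kinase that phosphorylates osteopontin among other secreted proteins, was at 3.40 and 5.18 against 0.23 and 0.21 TPM (log2 difference 2.10 ± 0.31, adjusted p = 0.000142, limma). The procollagen protease ADAMTS2 was at 2.98 and 4.08 against 0.01 and 0 TPM. PLOD1, PLOD3 and BMP1 were called higher near the threshold (adjusted p = 0.0436, 0.0405 and 0.0310, limma). With a pseudocount of 0.1, PLOD1 (adjusted p = 0.0520, limma) and PLOD3 (0.0522) lost their call. With single libraries left out, the log2 difference was 0.75 to 1.34 for PLOD1, 0.81 to 1.12 for PLOD3 and 0.83 to 1.16 for BMP1. P4HB, a subunit of collagen prolyl hydroxylase and a general disulphide isomerase, was at 32.6 and 55.9 against 47.7 and 28.4 TPM and was not called (adjusted p = 0.717). Rescaling over protein-coding genes gave P4HB a call as higher (adjusted p = 0.0375, limma). With single libraries left out, the log2 difference was 6.28 to 6.58 for F13A1, 1.99 to 2.34 for ADAMTS2 and 1.85 to 2.34 for FAM20C. Without a differentiated library the spread comes from an undifferentiated pair at 0.24 TPM or less, so such fits hardly test these 3.

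Of the tested genes of TGF-beta, the pathway for which TGFBI is named and which thrombospondin 1 can activate, most were higher. Of 27 listed, 20 were tested, of which 12 were higher, 2 lower and 6 not called, with a median of 1.51. Without the 1 tested gene listed at 0 in a stage, the median was 1.33. The shares over all tested genes were 18.6% higher and 22.8% lower. Endoglin (ENG), a co-receptor, was at 97.2 and 129 TPM in differentiated and 2.37 and 2.02 TPM in undifferentiated libraries (log2 difference 5.15 ± 0.37, adjusted p = 6.59e-07, limma). The ligand TGFB1 was at 56.5 and 72.5 against 4.88 and 3.46 TPM (log2 difference 3.67 ± 0.38, adjusted p = 1.13e-05, limma). SKI, a repressor of SMAD-dependent transcription, was at 16.6 TPM in both differentiated libraries against 0.50 and 0.30 TPM. With single libraries left out, the log2 difference was 4.94 to 5.35 for ENG and 3.47 to 3.87 for TGFB1. It was 3.55 to 3.76 for SKI, whose undifferentiated pair lies near 0.

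The 2 lower genes were BAMBI, a decoy receptor, at 0.29 and 0.32 against 4.05 and 2.08 TPM, and the latent TGF-beta binding protein LTBP4, at 0.66 and 1.81 against 3.65 and 5.54 TPM. SMAD4, the shared signal transducer, was at 11.3 and 13.7 against 19.4 and 6.10 TPM and was not called (adjusted p = 0.816, limma), but was called higher without undifferentiated replicate 1 (0.0341). BAMBI (adjusted p = 0.120 and 0.112) and LTBP4 (0.445 and 0.166) lost their call in limma without differentiated replicates 1 and 2. LTBP4 was also not called without undifferentiated replicate 2 (adjusted p = 0.0543, limma) or after rescaling over protein-coding genes (0.0578). The list then had 6 genes called higher without differentiated replicate 1 and 6 without differentiated replicate 2, and 0 lower (1 and 2 at an unadjusted p below 0.05). TGFBI itself stayed at 1.03 TPM or less beside these levels.

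Markers of cell types that are known sources of these matrix proteins were checked in the same libraries. Fibroblast markers, 10 genes, summed to 1.41 and 1.10 TPM after differentiation and 5.20 and 2.91 TPM before it. COL3A1 and FAP were at 0 in all libraries, COL1A1 and COL1A2 reached 0.28 TPM at most, and PDGFRB (0.87 and 0.41 against 4.99 and 2.24 TPM) was the 1 marker that reached 1 TPM. Endothelial markers, 8 genes, summed to 1.43 and 0.84 TPM in differentiated and 0.73 and 0.61 TPM in undifferentiated libraries. Of these, VWF (0.53 and 0.16 against 0 and 0 TPM), TIE1 (0.52 and 0.33 against 0.04 and 0.06 TPM) and CDH5 (0.19 and 0.10 against 0 and 0 TPM) were higher without overlap. ESAM was lower without overlap, at 0.13 and 0.18 against 0.67 and 0.54 TPM, and TEK was at 0 in all libraries. How these sums relate to the level of FN1 was not tested.

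Megakaryocyte and platelet markers, relevant for THBS1, SPARC and F13A1, summed to 22.6 and 23.9 TPM after differentiation against 0.62 and 1.30 TPM before it. After differentiation nearly all of the sum was PPBP, a chemokine of platelets and also of monocytes, at 22.6 and 23.7 against 0.09 and 0 TPM. ITGA2B was at 0 and 0 against 0 and 1.11 TPM, and GP9 at 0.07 and 0 against 0.53 and 0.19 TPM. GP1BA and GP6 were at 0 in all libraries, and PF4 reached 0.14 TPM at most. Osteoclast markers, relevant for SPP1, summed to 6.45 and 8.02 against 0.73 and 0.79 TPM, and 6 of 8 were higher without overlap. Over all genes above 0 TPM in at least 1 library, 24.9% were higher and 20.0% lower without overlap. OSCAR (1.89 and 3.10 TPM) and DCSTAMP (2.32 and 2.38 TPM) reached 1 TPM after differentiation. The other osteoclast markers stayed under 1 TPM in all libraries, with CTSK and ACP5 at 0.83 TPM or less.

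The labelled stages matched their markers. All 10 macrophage markers were higher without overlap, summing to 779 and 865 TPM in differentiated and 7.96 and 6.22 TPM in undifferentiated libraries, led by CD68 and LYZ. All 10 B lineage markers were lower without overlap, with sums of 13.4 and 15.7 against 455 and 276 TPM, led by DNTT and IGLL1. T and NK markers summed to 2.55 TPM at most and neutrophil markers to 0.79 TPM at most, with AZU1, ELANE, LTF and PRTN3 at 0 in all libraries. The part of any other cell type in the levels of the 7 genes was not tested, and these sums do not measure it.

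**Figure D5:**
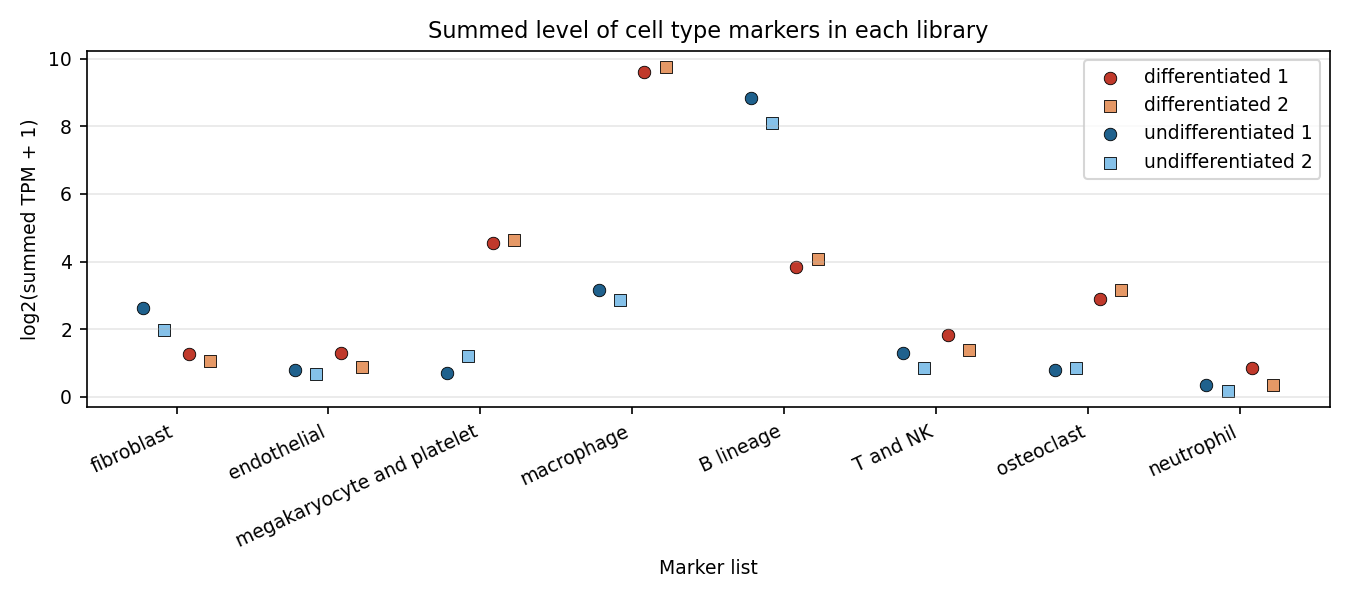
Summed TPM of 8 marker lists on a log2(sum + 1) axis, 1 point per library, with undifferentiated libraries in blue and differentiated libraries in red and orange. Macrophage markers reach 779 and 865 TPM and B lineage markers stand at 455 and 276 TPM before differentiation, while fibroblast and endothelial sums stay at 5.20 TPM or less.

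Neighbours of SPP1, FN1 and CD44 on the chromosome were taken from the gene order of GENCODE 29 after the values were seen. The protein-coding genes on either side of SPP1 are MEPE, at 0 in all libraries, and PKD2, a cation channel gene, at 5.16 and 3.84 against 4.23 and 2.63 TPM. Beyond MEPE, the SPP1 relative IBSP was, like SPP1, listed at 0 before differentiation and above 0 after it, at 0.25 and 0.35 TPM. PKD2 was not called (log2 difference 0.33 ± 0.40, adjusted p = 0.547, limma). Beside FN1, the purine synthesis gene ATIC was at 7.98 and 8.09 TPM in differentiated and 37.6 and 32.8 TPM in undifferentiated libraries, opposite in direction to FN1. MREG, on the other side, was at 0.27 and 0.30 against 0.80 and 0.91 TPM. Beside CD44, PDHX was at 2.19 and 2.31 against 6.06 and 1.66 TPM, with overlapping stages, and SLC1A2 at 0.02 TPM or less.

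Among the 10180 tested genes, those with the most similar levels over the 4 libraries were found by Euclidean distance of log2(TPM + 1). This measure rests on 4 points and mostly on the level and the stage. THBS1, TGFBI and VCAN were below the filter, and other genes below it were not searched. For CD44 the nearest were HIF1A (distance 0.579), the hypoxia-inducible transcription factor, at 120 and 104 against 44.5 and 26.0 TPM, then GABARAP (0.614) and LAPTM5 (0.706). The nearest to SPARC were TEPSIN, MAP3K5 and WDFY2, at distances of 0.146, 0.147 and 0.167. TSPAN32 (0.288), GAPT and GLIS3 were nearest to THBS1, and TLR2 (0.400) and CD200R1 (0.404) to TGFBI. The distance from VCAN to its nearest tested gene, ANKRD39, was 1.03, because no tested gene lies as low.

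No protein-coding gene came as close to SPP1 or FN1. The nearest to SPP1 of any type were the small RNAs RNU5A-1, RNU5B-1 and RNA5SP226 (1.12 to 1.57). Those nearest to FN1 were SNORD8, RNU4ATAC and RNU5E-6P (1.38 to 1.64). All 6 were listed at 0 in both undifferentiated libraries. After differentiation RNU5A-1 was listed at 5370 and 1989 TPM and RNU5B-1 at 6502 and 3298 TPM. Why these small RNAs were listed at 0 before differentiation was not tested. A listed 0 need not mean that a transcript was absent. Among protein-coding genes alone, a choice made after the values were seen, SAT1, LGMN and CD68 came nearest to both SPP1 and FN1. SAT1, a polyamine-catabolising enzyme, was at 361 and 391 against 3.88 and 1.82 TPM, at a distance of 4.75 from SPP1 and 1.99 from FN1. CD68, a lysosomal glycoprotein of macrophages, was at 197 and 217 against 0.60 and 0.27 TPM, at a distance of 5.16 from SPP1 and 1.74 from FN1.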

How the data were processed

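Total RNA of BLaER1 cells was sequenced in 2 differentiated and 2 undifferentiated libraries, grouped by their titles. The deposited values are TPM made by the authors with Trimmomatic, STAR and RSEM, per the submitters' processing notes. Versions, genome build and annotation were not stated in the sources used. TPM keeps no depth, so no counting interval was computed, and a share taken by abundant RNAs lowers all other genes. RSEM divides reads shared by similar genes by estimate. Gene types came from GENCODE 29 (58039 of 58302 IDs matched) and promoters from RefSeq (7 of 7 genes).

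Values were compared as log2(TPM + 1) with limma 3.58.1 in R 4.3.3 (moderated variances with a mean-variance trend, two-sided, adjusted over 10180 genes), and the procedure was tested on simulated data. Residual degrees of freedom were 2 and prior ones 10.9. With 2 against 2 libraries, an exact permutation test cannot go below 0.333. The 7 genes and all lists were chosen with earlier results of these data known. Named by rule were, of each list, up to 3 called genes that changed most in its more frequent direction, up to 2 in the other and the most abundant not called, 2 markers per list and the 3 nearest patterns per gene. A few genes so selected are not reported here. Others named were chosen after their values were seen. Alternatives were the pseudocount, the filter, the scaling, the trend, a replicate block and leaving out each library.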

Additional observations from a re-analysis of the deposited data

How the results depend on the processing

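The 50 called list genes kept their direction in each setting in which they were tested, with 23 of them not tested at a filter of at least 5 TPM. With a pseudocount of 0.1 every count of called genes stayed within 1.5 times. With a filter of at least 5 TPM, 4511 genes were tested, and 1016 were higher and 1420 lower overall. The lists then had 1 receptor and 1 glycoprotein lower, 0 collagens or laminins higher (0 at an unadjusted p below 0.05, limma) and 0 lower (1 unadjusted), 3 hyaluronan genes higher and 0 lower (0 unadjusted), 2 folding enzymes higher and 0 TGF-beta genes lower (0 unadjusted). Without a filter, over 29186 genes, 687 were higher and 573 lower, with 0 receptors (3 at an unadjusted p below 0.05, limma) and 1 glycoprotein lower, 0 collagens or laminins higher (8 unadjusted) and 0 lower (2 unadjusted), 3 hyaluronan genes higher and 0 lower (2 unadjusted), 3 folding enzymes higher, and 7 TGF-beta genes higher and 0 lower (4 unadjusted). Rescaled over protein-coding genes, 4102 genes were higher, among them 9 glycoproteins, 6 collagens or laminins, 13 hyaluronan genes and 15 folding enzymes. Median-of-ratios scaling and a fit without the trend each gave 2 collagens or laminins lower. With any single library left out, 934 to 2714 genes were higher and 337 to 3818 lower. The lists then had 0 to 3 receptors lower, 1 to 5 glycoproteins lower, 1 to 2 collagens or laminins higher and 0 to 2 lower, 4 to 10 hyaluronan genes higher and 0 to 3 lower, 3 to 9 folding enzymes higher, and 6 to 14 TGF-beta genes higher and 0 to 2 lower. The low ends were mostly reached without a differentiated library, where many of the 50 list calls were lost. The remaining spread is then that of the undifferentiated pair. Where that pair is at 0 this tests nothing, and where it is near 0 it tests little. Libraries share replicate numbers, but the labels do not say what a number marks, and the correlation of same-numbered deviations was -0.02 over genes. With the number as a replicate block, 1730 genes were higher and 2036 lower, and 3 folding enzymes were higher instead of 6, with PLOD1, PLOD3 and BMP1 losing their call. The cause of these changes was not tested. Unknown depth limits all values near 0, including those of TGFBI, THBS1 and VCAN.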
